A study of Mus musculus with 24 samples.

Results

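The mitochondrial ribosomal protein genes, here the genes whose symbol starts with Mrpl or Mrps followed by a digit, were described in Smad2-knockout mouse embryonic stem cells. The rule uses the symbol and no measured value, and 77 of the 20625 genes in the authors' deposited tables met the rule, with all 77 in both tables. The cells were E14 mouse embryonic stem cells, a line from the early embryo, grown on gelatin in medium with serum and leukaemia inhibitory factor. They were wild type (WT) or belonged to 1 of 2 knockout lines, Smad2_KO1 and Smad2_KO2, whose derivation is not given in the sources used here. The Smad2 protein relays signals of Nodal and activin receptors into gene expression. Cells of each genotype were in control medium or were treated for 12 h with INK128 at 200 nM, which inhibits mTOR and induces the state called pausing. The 6 groups had 4 poly(A) RNA libraries each, and values per library were not analysed here.

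The mitochondrial ribosome is made of proteins encoded in the nucleus, translated in the cytosol and imported, and of ribosomal RNAs transcribed from mitochondrial DNA. It translates the few mRNAs of the mitochondrial genome, which code for core subunits of the respiratory chain and of ATP synthase. Many of its proteins have counterparts in bacterial ribosomes, and others exist only in mitochondria. Genes named Mrpl were first assigned to the large subunit and genes named Mrps to the small one, although Mrps18a and Mrps30 proteins sit in the large subunit.

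Each of the authors' deposited tables, 1 for control and 1 for paused cells, gives per gene a mean normalized count, a log2 change with its standard error (SE), and a p-value adjusted over the table. A gene was called at an adjusted p under 0.05. The direction of the change is not stated, and it was read as knockout over wild type because Smad2 was lower in both deposited tables, at -0.35 (SE 0.07) in control and -0.63 (SE 0.06) in paused cells; the opposite reading would turn every direction below. The knockout lines could not be separated. Nothing in the labels says that replicates were separate cultures, so the p-values measure spread between libraries that may be technical. The 6 embryonic stem cell markers summed to 203726 mean counts in the deposited control table and 169826 in the paused one. Of these, Pou5f1 was called lower in the deposited control table at -0.18 (SE 0.06), and Nanog was called higher in both, at 0.32 (SE 0.06) and 0.18 (SE 0.07). Markers of other cell types also moved: 6 of 6 primitive endoderm markers were called higher in both deposited tables (summed means 1011 and 1788), as were 3 of 5 trophoblast markers with 1 (Cdx2) called lower, while 3 of 5 fibroblast markers (summed means 11408 and 10290) were called lower. Of 4 neuroectoderm markers, 3 were called lower and 1 higher in both deposited tables, and of 4 mesendoderm markers 3 were called lower and 1 higher in control and 2 lower in paused cells. No measured marker was at 0, and their part in the results was not tested.

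The promoters of 5 members are shown because they carry the largest called changes or an example of the motifs, read 5′ to 3′ as the 250 bases before the RefSeq start (GRCm38.p6), with capitals marking a match to one of 7 searched motifs. Mrpl16 (chr19:11770165-11770414, plus strand) and Mrps17 (chr5:129715247-129715496, plus strand) had the largest called fall in the control and in the paused table, and Mrps2 (chr2:28467816-28468065, plus strand) the largest called rise in both. Mrpl34 (chr8:71464676-71464925, plus strand) and Mrpl22 (chr11:58171414-58171663, plus strand) were chosen after their values were seen, as members called lower in both tables that hold an ETS motif. Of the 13 members called lower in both tables, 3 had an ETS motif before the start: Mrpl3, Mrpl22 and Mrpl34. Not every member had a RefSeq promoter to search. The RefSeq starts used for Mrps17, Mrps2 and Mrpl22 lie inside the RefSeq gene span, downstream of its first base.

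Mrpl16: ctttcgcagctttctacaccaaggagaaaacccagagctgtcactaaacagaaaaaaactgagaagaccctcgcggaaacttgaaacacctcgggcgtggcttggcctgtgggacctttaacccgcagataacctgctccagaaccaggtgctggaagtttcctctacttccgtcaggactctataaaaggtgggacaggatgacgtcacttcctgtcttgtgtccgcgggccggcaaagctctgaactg

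Mrps17: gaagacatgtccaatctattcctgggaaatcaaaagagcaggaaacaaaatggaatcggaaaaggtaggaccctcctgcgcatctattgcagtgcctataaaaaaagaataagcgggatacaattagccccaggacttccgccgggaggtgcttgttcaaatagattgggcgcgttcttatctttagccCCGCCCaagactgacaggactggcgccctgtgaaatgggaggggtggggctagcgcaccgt

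Mrps2: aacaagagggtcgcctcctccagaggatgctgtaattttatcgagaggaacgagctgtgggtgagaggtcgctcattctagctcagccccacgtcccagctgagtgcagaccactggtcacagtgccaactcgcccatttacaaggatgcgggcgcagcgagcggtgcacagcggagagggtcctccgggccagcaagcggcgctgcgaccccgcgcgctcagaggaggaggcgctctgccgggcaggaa

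Mrpl34: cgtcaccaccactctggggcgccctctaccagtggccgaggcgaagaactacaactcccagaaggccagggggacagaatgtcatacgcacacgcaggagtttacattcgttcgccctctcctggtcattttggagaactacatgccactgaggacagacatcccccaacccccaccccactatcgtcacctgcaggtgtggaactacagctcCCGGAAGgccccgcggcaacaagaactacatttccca

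Mrpl22: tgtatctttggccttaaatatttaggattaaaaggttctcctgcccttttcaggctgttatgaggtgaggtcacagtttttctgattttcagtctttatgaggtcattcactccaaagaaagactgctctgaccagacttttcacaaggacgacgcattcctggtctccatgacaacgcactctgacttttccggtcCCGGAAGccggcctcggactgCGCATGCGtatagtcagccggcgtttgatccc

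In Mrps17 the capitals mark the SP1 motif GGGCGG, read on the minus strand, 61 bases before the start. In Mrpl34 they mark the ETS motif CCGGAAG at -37, and in Mrpl22 the same motif at -53 and the NRF1 core CGCATGCG at -32. The promoters of Mrpl16 and Mrps2 held none of the 7 motifs over their full 300-base window. A match is a description of letters and says nothing about binding.

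In control cells 29 mitoribosomal genes were lower in the knockout and 47 did not pass the test. Of the 77, 30 were called in the authors' deposited control table, 29 lower and 1 higher, where 21.9% of all genes were called lower, 19.5% higher and 41.4% in either direction. The members' shares were 37.7% lower and 1.3% higher. When tested for a change beyond 1.2-fold 1 call was left (Mrpl16), and with the deposited statistic scaled to its middle spread over all genes 0 were. An unadjusted DESeq2 p under 0.05 was held by 40 of the 77 members, beside 9510 of all 19780 genes. Their median change was -0.10, against 0.00 over all genes and -0.05 over genes above a minimum on abundance of 5 ppm of the summed mean counts, which all 77 passed. Among genes above that minimum the deposited table called 31.6% lower, 18.4% higher and 50% in all. Of those genes, 6120 of 10795 had an unadjusted DESeq2 p under 0.05. The changes were small, and 65 of 77 lay within 1.2-fold of wild type. The other 12 changed at least 1.2-fold, as did 2936 of the 10795 genes above that minimum. In bulk RNA, fewer cells of a type and less RNA per cell cannot be told apart.

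The split between falls and rises depended on the scaling. Setting the summed counts of knockout and wild type equal gave 16 lower and 7 higher members in control cells. Over all genes it gave 15.7% lower, 24.1% higher and 39.8% in all. That setting, here and below, assumed 4 wild-type and 8 knockout libraries behind each deposited mean, which is not stated. Removing the trend of change with GC content and transcript length gave 21 lower and 3 higher, beside 21.7%, 20.2% and 41.9%. The members' median stayed below 0 under both, at -0.05 and -0.07.

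Mrpl16 codes for a conserved large-subunit protein near the tRNA-binding centre (RefSeq gene span chr19:11770415-11774956). It had the largest fall among the members in the authors' deposited control table, -0.54 (SE 0.09, DESeq2 adjusted p = 9.3e-08), or 68.6% of the wild-type level, from a mean of 1671 normalized counts. Mrps21, a small-subunit protein with a bacterial counterpart (chr3:95862634-95871514), had -0.47 (SE 0.11, adjusted p = 4.7e-05) in the same deposited table. Mrpl12 encodes the large-subunit stalk protein that contacts translation factors (chr11:120484637-120488754). Its deposited control change was -0.41 (SE 0.09, adjusted p = 5.3e-05), at 75.5% of wild type. Mrps17, a conserved rRNA-binding protein of the small subunit (chr5:129715450-129718712), had -0.40 (SE 0.06) and the smallest adjusted p of any member in the deposited control table, 2.2e-10. Mrpl34 (chr8:71464926-71465753) completed the 5 largest falls of that deposited table at -0.35 (SE 0.11, adjusted p = 0.0060).

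The single member called higher in the deposited control table was Mrps2, a conserved small-subunit protein (chr2:28465951-28471177), at 0.12 (SE 0.03, adjusted p = 1.6e-04), or 109% of wild type, from a mean of 5718 normalized counts. The other 24 members called lower in that deposited table ranged from -0.33 for Mrpl27 to -0.10 for Mrps35. Among the 47 not called, the values ran from -0.18 for Mrps25 to 0.16 for Mrpl23, so called and uncalled values overlapped.

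In paused cells the called members were again mostly lower. The authors' deposited paused table called 25 of 77 members, 22 lower and 3 higher, where 22% of all genes were called lower, 20.5% higher and 42.6% in either direction. Among abundant genes those deposited shares were 31.9%, 19.7% and 51.6%, and the members' were 28.6% lower and 3.9% higher. Under each of the same 2 alternatives 0 calls were left. An unadjusted DESeq2 p under 0.05 was held by 30 of the 77 members, beside 9725 of all 19979 genes and 6348 of 11006 abundant genes. The members' median was -0.06, against -0.05 over abundant genes, and 74 of 77 lay within 1.2-fold of wild type. The other 3 changed at least 1.2-fold, as did 2600 of 11006 abundant genes. With equal summed counts 14 were lower and 6 higher, beside 17.4%, 23.7% and 41.1% of all genes lower, higher and in all. With the GC and length trend removed 16 were lower and 7 higher, beside 22.1%, 21.9% and 44%. The members' paused median was -0.03 with equal summed counts and -0.04 with the trend removed.

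Mrps17 had the largest paused fall in the authors' deposited table, -0.41 (SE 0.06, adjusted p = 9.0e-12), at 75.4% of wild type, close to its control value. Mrpl16 followed in the deposited paused table at -0.34 (SE 0.06, adjusted p = 1.5e-08), then Mrpl33 at -0.26 (SE 0.08, adjusted p = 0.0035) and Mrpl28 at -0.26 (SE 0.05, adjusted p = 8.1e-06). Mrpl12 had -0.25 (SE 0.06, adjusted p = 1.0e-04) in the same deposited table. These 5 were also called lower in control cells. The 3 members called higher in the deposited paused table were all small-subunit proteins with bacterial counterparts: Mrps2 at 0.15 (SE 0.03), Mrps10 at 0.13 (SE 0.04) and Mrps5 at 0.10 (SE 0.03).

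The other 17 members called lower in the deposited paused table ranged from -0.23 for Mrpl34 to -0.09 for Mrpl30. Mrpl22 was among them at -0.20 (SE 0.04, adjusted p = 4.2e-05), beside -0.22 (SE 0.07, adjusted p = 0.0034) in the deposited control table.

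**Figure D1:**
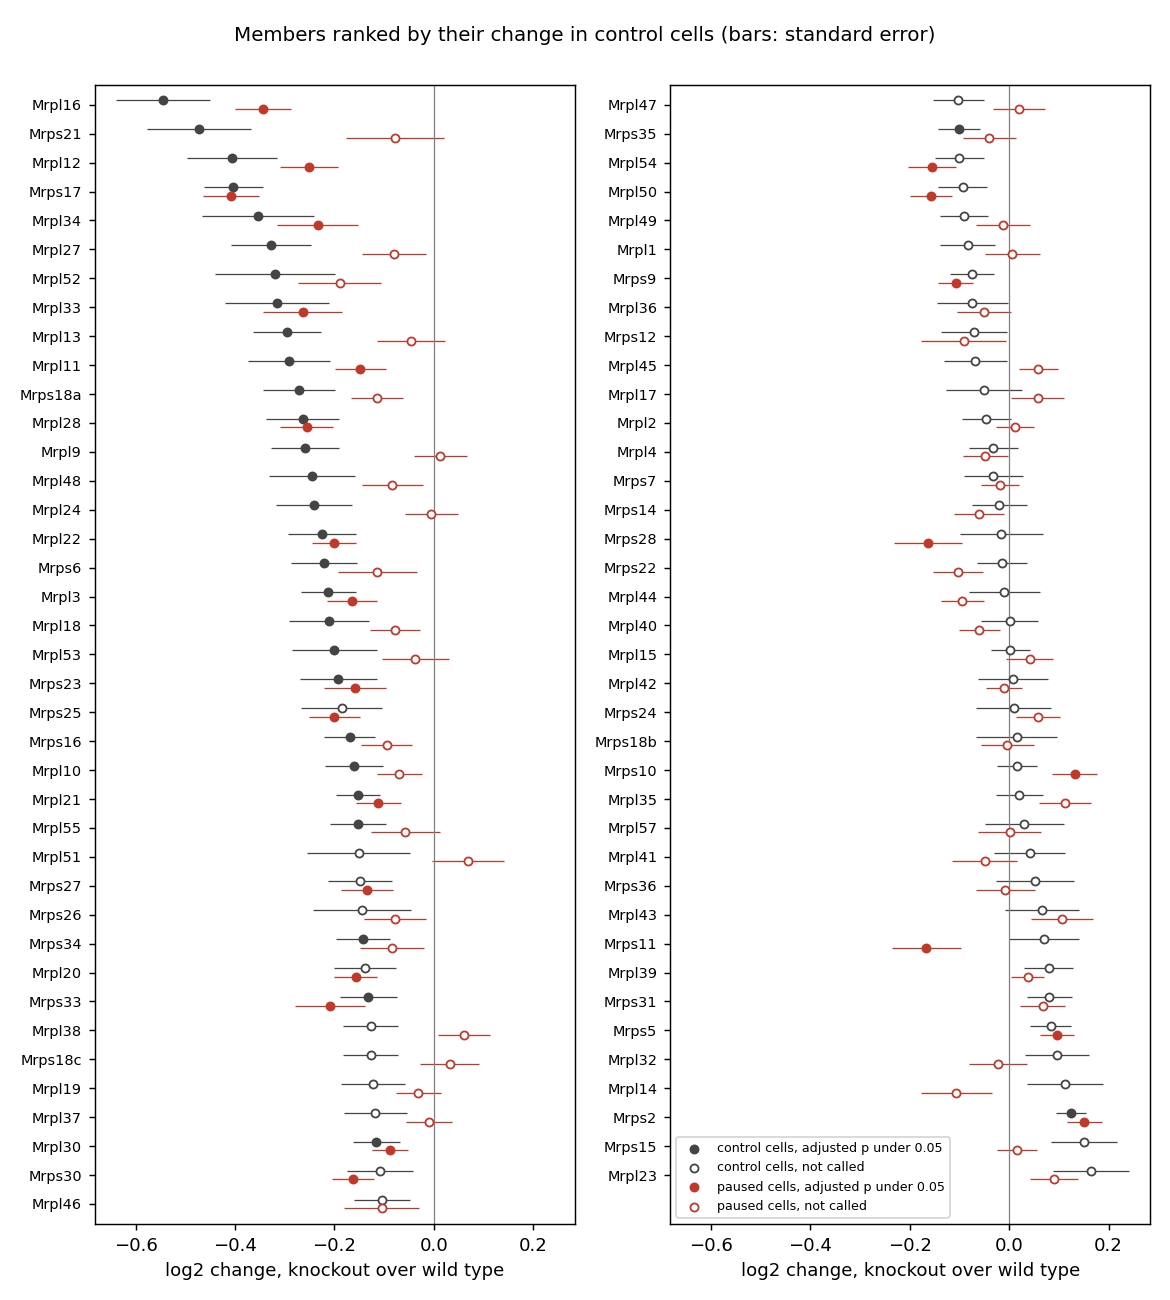
Log2 change of each of the 77 members, knockout over wild type, in the deposited control (black) and paused (red) tables, ranked by the control value. Bars are 1 standard error and filled points have an adjusted p under 0.05. The top row is Mrpl16, and the called rises are Mrps2 in both conditions and Mrps10 and Mrps5 in paused cells.

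Across the deposited tables, 13 members were called lower in both conditions: Mrpl3, Mrpl11, Mrpl12, Mrpl16, Mrpl21, Mrpl22, Mrpl28, Mrpl30, Mrpl33, Mrpl34, Mrps17, Mrps23 and Mrps33. Mrps2 was called higher in both. Another 16 were called lower in the control table without being called in the paused one, 9 were called lower in the paused table without being called in the control one, and 36 were called in neither. Of the 10958 abundant genes in both tables, 22.6% were called lower in both, against 16.9% of the members. Called higher in both were 13.9%, against 1.3%. Over all 19134 genes in both tables these shares were 16% and 14.3%. The share called lower in the control table without a call in the paused one was 8.46% of abundant genes and 20.8% of the members. The reverse was 9.41% and 11.7%. Over all genes these 2 shares were 6.44% and 6.9%. Neither table called 35.3% of abundant genes, 44.2% of all genes and 46.8% of the members. None of these shares was tested. No member was called in opposite directions. Over the 77 members the control and paused changes correlated with r = 0.65 and rho = 0.59, against 0.88 and 0.81 over 10958 abundant genes. These values are a description across genes that share the libraries of each table. Control changes ran from -0.54 to 0.16 for members and from -8.64 to 3.36 for abundant genes. The part of this range in the correlations was not tested.

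None of the 77 passed the test of the difference between conditions, paused change minus control change, where 1.44% of 19134 genes did, 0.716% higher and 0.721% lower. At an unadjusted p under 0.05 there were 8 members, 6 higher and 2 lower, where 12.9% of all genes passed, 6.66% higher and 6.22% lower. The members' median difference was 0.04, against 0.01 over all genes. It was 0.02 with equal summed counts and also with the GC and length trend removed. Mrpl9 had the smallest p: the change was -0.26 (SE 0.07) in the deposited control table and 0.01 (SE 0.05) in the paused one, a difference of 0.27 (SE 0.09, 95% interval 0.10 to 0.44, Benjamini-Hochberg adjusted p = 0.080). Next by p were Mrps21, which also had the largest difference, 0.39 (SE 0.14, 95% interval 0.11 to 0.68, adjusted p = 0.16), Mrpl13 at 0.25 (adjusted p = 0.19) and Mrpl24 at 0.24 (adjusted p = 0.21). Of the lower pair, Mrps11 had -0.24 and Mrpl14 -0.22. Mrps17 differed by -0.00, with an interval of -0.16 to 0.16. Calling a member in one condition and not the other was therefore not shown to be a difference between conditions.

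**Figure D2:**
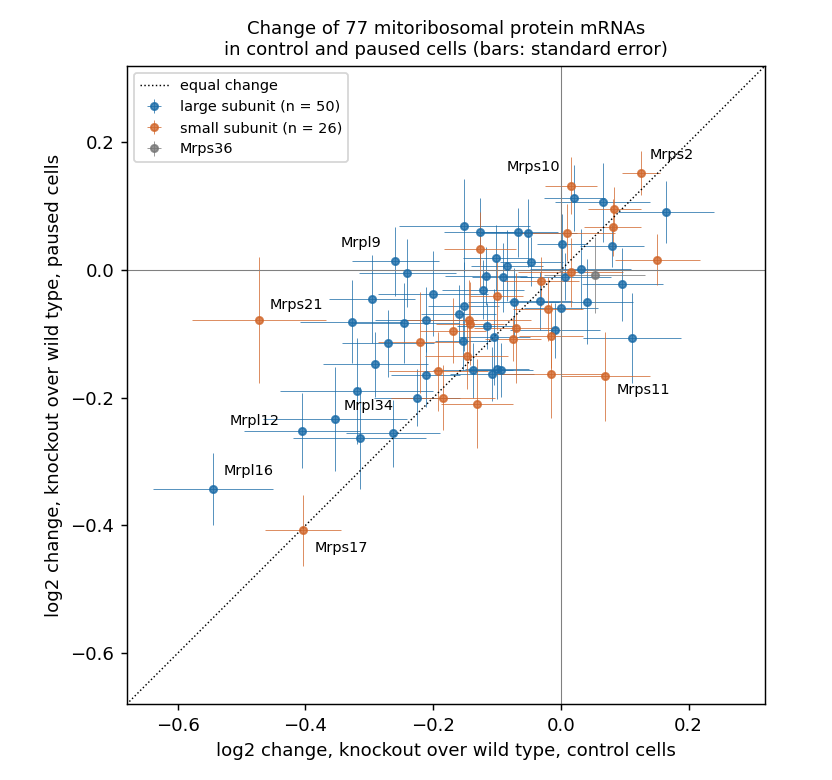
Log2 change in control cells (x axis) against paused cells (y axis) for 77 members, coloured by subunit, with bars of 1 standard error and a dotted line of equal change. Mrps17 lies on the line, while Mrps21 and Mrpl9 lie above it.

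By role, the large-subunit proteins with a bacterial counterpart had 17 of the 29 falls in control cells. Of these 30 proteins, 17 were called lower and none higher in the deposited control table, and in the paused one 11 of 30 were called lower. These are 56.7% and 36.7%, beside 31.6% and 31.9% of abundant genes and 21.9% and 22% of all genes. Of the 20 large-subunit proteins found only in mitochondria, 4 and 3 were called lower in the deposited control and paused tables, or 20% and 15%, below those background shares. Among the 16 small-subunit proteins with a bacterial counterpart, 4 were called lower in each deposited table, or 25%. This is below the shares of abundant genes and above those of all genes. Of these 16, 1 was called higher in control and 3 in paused cells. The 10 small-subunit proteins found only in mitochondria had 4 (40%) called lower in each deposited table and none higher. Among the proteins found only in mitochondria, the smallest p of the large subunit was that of Mrps18a in the deposited control table, at -0.27 (SE 0.07), and of Mrps30 in the paused one, at -0.16 (SE 0.04). In the small subunit they were those of Mrps34 in the deposited control table, at -0.14 (SE 0.05), and of Mrps25 in the paused one, at -0.20 (SE 0.05). Whether the roles differ from each other was not tested. Mrps36, now placed in the oxoglutarate dehydrogenase complex, was not called, at 0.05 (SE 0.08) and -0.01 (SE 0.06).

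**Figure D3:**
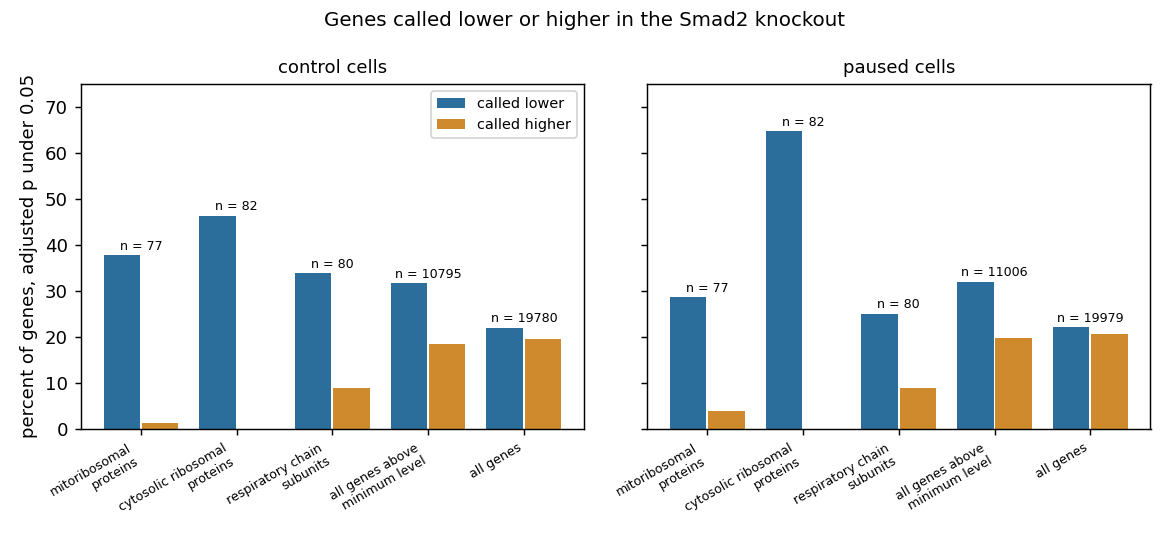
Share of genes called lower and higher, in percent, for the mitoribosomal members and the comparison lists in each deposited table. In control cells 37.7% of the members were called lower and 1.3% higher, against 31.6% and 18.4% of abundant genes.

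Levels were compared between genes only as mean counts per kb of the longest protein-coding GENCODE M21 transcript. Averaged over the deposited tables, the highest levels were those of Mrpl42 (4126 per kb), Mrpl2 (3589) and Mrpl18 (3286). The lowest were those of Mrpl48 (195), Mrps25 (238) and Mrpl57 (249). Their longest transcripts had 4285, 6073 and 2877 bases, beside a member median of 1316. The part of the transcript chosen in this order was not tested. The highest differed by table: Mrpl42 (5421), Mrpl18 (4064) and Mrpl12 (3917) in the control one. In the paused one they were Mrpl2 (3733), Mrps2 (3511) and Mrpl42 (2831). These tables hold no spread of levels over libraries, so the order of neighbours was not tested. Mrpl42 and Mrpl2 did not pass the test in either deposited table. Member transcripts were short, with a median length of 1316 bases against 3187 for abundant genes, and their median GC content was 50.1% in both. Across members the change had rho = 0.09 with length in control and 0.24 in paused cells, beside 0.18 and 0.10 over abundant genes. In 3 bins of length, from shortest to longest, 11 of 26, 12 of 26 and 6 of 25 members were called lower in the deposited control table (42.3%, 46.2% and 24%), beside 39.9%, 36.6% and 31.2% of abundant genes in the same ranges of length. In paused cells 7, 9 and 6 were called lower in the deposited table (26.9%, 34.6% and 24%), beside 40.1%, 35.8% and 31%. With the deposited mean count the change had rho = 0.06 in control and 0.38 in paused cells, beside -0.04 and 0.03 over abundant genes. The part of length and abundance in the calls was not tested beyond the trend removal above. The least precise members were Mrpl52 (SE 0.12), Mrpl34 (0.11) and Mrps21 (0.11) in the deposited control table, and Mrps21 (0.10), Mrps12 (0.09) and Mrpl52 (0.08) in the paused one.

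The share of each member in its table's summed mean counts was lower in the paused table for 71 of 77 members, with a median ratio of 0.722. This ratio sets deposited means, whose libraries are not stated, side by side from tables that were normalized separately, so it has no test. Over all genes 43.3% had a lower share, with a median ratio of 1.06. The ratio rose with transcript length, with rho = 0.32 both across members and across abundant genes, and member transcripts were shorter; the part of length was not tested. Mrpl34 had the lowest ratio, 0.349, from 1832 to 614 mean counts, and Mrps12, a conserved protein of the decoding centre, had 0.379. Mrps2 at 1.33 and Mrpl9 at 1.28 had the highest. For comparison, 93.8% of 80 respiratory chain subunit genes had a lower share, with a median ratio of 0.622, and 37.8% of 82 cytosolic ribosomal protein genes, with a median of 1.03.

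**Figure D4:**
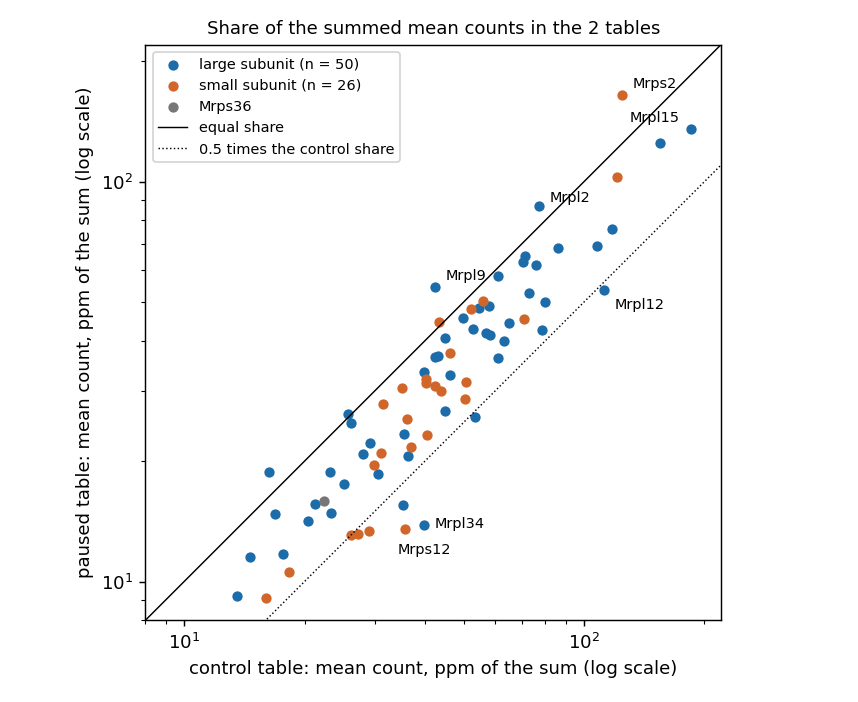
Share of the summed mean counts in ppm, control table (x axis) against paused table (y axis), both on log scales, with a solid line of equal share and a dotted line at 0.5 times the control share. The points of 71 of 77 members lie below the solid line; Mrps2 and Mrpl9 lie above it.

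Of 5 mitoribosomal proteins with other symbols, Chchd1 was called lower in both deposited tables, at -0.25 (SE 0.05) and -0.31 (SE 0.06), and Ptcd3 was called higher in paused cells at 0.11 (SE 0.03). Ict1, the older symbol of Mrpl58, a peptidyl-tRNA hydrolase of the large subunit, was called lower in both at -0.18 (SE 0.06) and -0.18 (SE 0.07). Of 26 assembly factors, 10 (38.5%) were called lower and none higher in the deposited control table, and 6 (23.1%) lower and 1 higher in the paused one. Among abundant genes 31.6% and 31.9% were called lower in these tables, and 18.4% and 19.7% higher. The lists that follow have the same background. Gtpbp10, a GTPase of large-subunit assembly, had -0.52 (SE 0.06) and -0.23 (SE 0.04) in the deposited control and paused tables. Of 13 translation factors, 4 (30.8%) and 7 (53.8%) were called lower and none higher in the deposited tables. Guf1, a mitochondrial elongation factor, had -0.41 (SE 0.06) and -0.30 (SE 0.05). Of 17 mitochondrial aminoacyl-tRNA synthetases, 4 (23.5%) were called lower in each deposited table, and 3 were called higher in the paused one. Yars2, which charges the mitochondrial tyrosine tRNA, had -0.33 in both deposited tables (SE 0.05 and 0.04).

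Of 15 genes of mitochondrial transcription and RNA stability, 6 (40%) and 8 (53.3%) were called lower in the deposited control and paused tables, and none and 1 higher. Tefm, the mitochondrial transcription elongation factor, had -0.49 (SE 0.07) and -0.26 (SE 0.06), and Grsf1, an RNA-binding protein of mitochondrial RNA granules, had -0.42 (SE 0.08) and -0.33 (SE 0.07) in the deposited tables. The 13 mRNAs of the mitochondrial genome, the templates of this ribosome, had 13 of 13 deposited control values above 0, with a median of 0.24. None of them was called by DESeq2 or had an unadjusted p under 0.05 in that table, and their SEs ran from 0.15 to 0.32. Of these mRNAs, 1 was called in the deposited paused table, COX3, a cytochrome oxidase subunit, at 0.20 (SE 0.08).

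Among 10 nuclear regulators of mitochondrial genes, 3 (30%) were called lower and 1 higher in the deposited control table, and 3 (30%) lower and 2 higher in the paused one. Mycn, a Myc-family transcription factor, had -0.66 (SE 0.05) and -1.06 (SE 0.07), and Myc had -0.44 (SE 0.08) and -0.35 (SE 0.09) in the deposited tables. Nrf1, which binds the motif CGCATGCG, had -0.09 (SE 0.04) and -0.12 (SE 0.05), and Gabpa, an ETS factor, had 0.09 (SE 0.04) and 0.08 (SE 0.03). Of 10 mitochondrial proteases and chaperones, 1 (10%) was called lower in each deposited table and none higher: Hspe1 at -0.20 (SE 0.08) in control and Hspd1 at -0.11 (SE 0.04) in paused cells. For comparison, 38 of 82 cytosolic ribosomal protein genes (46.3%) in the deposited control table and 53 (64.6%) in the paused one were called lower and none higher, and respiratory chain subunits were called 27 (33.8%) lower and 7 higher, then 20 (25%) lower and 7 higher.

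RefSeq promoters were found for 68 of the 77 members, 74 promoters in all. The ETS motif CCGGAAG was in 33.8% of them, against 8.86% of all 32851 promoters and 34.7% of 72 promoters of cytosolic ribosomal protein genes. The median GC content was 58.5% for members' promoters and 52.7% for all promoters, and its part in these shares was not tested. The NRF1 core CGCATGCG was in 9.46% against 1.87%, the YY1 core AGATGGCG in 10.8% against 1.95%, and the SP1 motif GGGCGG in 52.7% against 35.7%, with 58.3% of the cytosolic ribosomal promoters. The E-box CACGTG was in 9.46% against 7.15%, and neither TCAAGGTCA (ERR) nor GTCTAGAC (paired SMAD box) was in any member's window. All were searched on both strands. Of the 33 matched genes called lower in either deposited table, 48.5% held the ETS motif and 27.3% the SP1 motif, and of the other 35, 25.7% and 71.4%. The NRF1 core was in 9.09% and 11.4%, the YY1 core in 9.09% and 14.3% and the E-box in 3.03% and 11.4% of these genes; the differences were not tested.

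Of the members, 31 have a protein-coding gene in both tables that starts within 1 kb on the opposite strand. Of these partners, 12 in each deposited table were called lower, or 38.7%, near the 31.6% and 31.9% of abundant genes. None was called higher, beside 18.4% and 19.7% of abundant genes. These shares were not tested. Mrps11 and Mrpl46 are each other's partner and were counted from both sides. The sign of partner and member was the same in 14 pairs in control and 21 in paused cells. Mrpl40, which was not called, starts near Hira, a histone chaperone gene, whose deposited changes were -0.30 and -0.31. Exons of 32 members overlap another gene, and in 12 a gene of the tables covers at least 10% of the member's exon bases. Mrps25 shares 69.8% with Nr2c2 and Mrps34 63.4% with Mapk8ip3, both on the opposite strand. Also on the opposite strand, Mrpl19 shares 36% with Gcfc2, Mrpl43 33.4% with Twnk and Mrpl24 26.3% with Rrnad1. On the member's own strand, Mrps34 shares 37% with Nme3, Mrps24 15.4% with Urgcp and Mrps6 10.4% with Slc5a3. Mrps6 also shares 19.9% on its own strand with Gm49711, a protein-coding gene that was not analysed here. Mrpl53, called lower in the deposited control table at -0.20 (SE 0.09, adjusted p = 0.048), shares 88% on its own strand with Gm42688, a protein-coding GENCODE gene that was not analysed here. Genes of other GENCODE types, also not analysed here, cover 30.5% of Mrps18b, 14.1% of Mrpl10 and 13.1% of Mrpl12 on the opposite strand. Another covers 23.2% of Mrps18c on the same strand. Whether counting used strand is not stated, and bases shared on the same strand cannot be told apart by strand. The values of these 12 members are therefore uncertain. So are those of the 5 others that share at least 10% of their exon bases with genes not analysed here.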

How the data were processed

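Per the submitters' processing notes, reads were handled with FastQC, Trim Galore, HISAT2, featureCounts and DESeq2 on mm10; versions, strand setting and the libraries in each comparison are not given in the sources used here. The authors deposited 2 DESeq2 results tables. Per the file headers, the deposited mean of normalized counts is a signal averaged over libraries, the deposited change with its standard error is log2, the statistic the authors give is a score, and the p-value and its Benjamini-Hochberg adjusted p-value were deposited with it. No library's depth is known, so precision rests on the standard errors. The tables hold no counts, so no count test was run.

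To compare conditions, the control change was subtracted from the paused change and set against the combined SE, the root of the sum of both squared SEs; two-sided p-values from a normal distribution were adjusted (Benjamini-Hochberg) over 19134 genes. The difference test was run on simulated data with normal noise drawn from the same combined SEs. Such a run cannot show whether those SEs match the real spread. GC content and length came from GENCODE M21, and their trend was removed with running medians over 50 bins. The members and lists were chosen with earlier results of these data known. Named members were, per table, the 5 largest called rises and falls, the smallest p per role, the 4 smallest p of the difference, the 3 most and 3 least abundant per kb and the 3 largest SEs; per list, at most 4 called genes. Members named as the ends of a range, for calls in both tables, for their promoter, share ratio, neighbour or overlap, and the lower pair of the difference, were chosen after their values were seen. Mrpl58, listed under its older symbol Ict1, fell outside the symbol rule. Proteins were not analysed here. Python 3.11.15, numpy 2.4.6, scipy 1.17.1 and pandas 2.3.3 were used.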

Additional observations from a re-analysis of the deposited data

Results flagged for a closer look

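Among the genes of the pathway and marker lists, 3 passed the test of the difference between conditions. They were 1 of 26 assembly factors, 1 of 10 nuclear regulators and 1 of 4 mesendoderm markers. None passed in the other pathway lists, of 5, 13, 17, 15, 13 and 10 genes. The other marker lists, of 6, 6, 4, 5 and 5 genes, also held none. Of all 19134 genes 1.44% passed, and of abundant genes 2.14%. Whether the list genes passed more often than these shares was not tested. Gtpbp10, the assembly GTPase, fell less in paused than in control cells, with a difference of 0.28 (SE 0.07, adjusted p = 0.013). Mycn fell more in paused cells, with a difference of -0.40 (SE 0.08, adjusted p = 9.6e-04). Eomes, a mesendoderm marker, was at -0.94 (SE 0.18) in the deposited control table and -0.06 (SE 0.18) in the paused one, a difference of 0.89 (SE 0.25, adjusted p = 0.033).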

How the results depend on the processing

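No paired analysis was possible because the tables hold no values per library, and leaving out replicates was not run for the same reason. The 30 calls in control cells became 19 at an adjusted p under 0.01 (30.9% of all genes called). With an adjusted p under 0.05 and a change of at least 1.2-fold they became 12 (28.5%). They became 1 when tested for a change beyond 1.2-fold (10.6%, Mrpl16). With the deposited statistic scaled to its middle spread they became 0 (1.48%). An unadjusted DESeq2 p under 0.05 was held by 40 members, beside 9510 of all 19780 genes. In the same order, the 25 paused calls became 15 (32.3%), 3 (26.8%, Mrpl16, Mrpl33 and Mrps17), 0 (10.6%) and 0 (2.25%). Such an unadjusted p was held by 30 members in paused cells, beside 9725 of all 19979 genes. The scaling divides by 2.76 in control and 2.80 in paused cells, the spread of the statistic over all genes; the cause of that spread was not tested. Centring all genes at 0 kept 30 and 25 calls. Adjusting p-values over only the genes above the minimum on abundance gave 35 calls in control cells, 33 lower and 2 higher, where 51.6% of those genes were called. In paused cells it gave 26, 23 lower and 3 higher, where 53% were. The count for the difference was 0 under each of these alternatives and with equal summed counts or the GC and length trend removed. Adding Ict1 and 5 other mitoribosomal proteins, an alternative chosen after seeing the data, gave 32 and 28 calls of 83. Over the 77 members no called value changed sign. Values that were not called did: with equal summed counts 8 in control and 9 in paused cells and 4 of the difference (such as Mrpl2 in control cells, from -0.05 to 0.01, and Mrpl42 in paused cells, from -0.01 to 0.02), and with the GC and length trend removed 7, 6 and 5.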
